A study of Mus musculus with 6 samples.

Results

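Costimulatory and checkpoint surface proteins, through which a macrophage exchanges signals with T cells or other cells, were examined here. Most are ligands, whereas Cd200r1 and Sirpa are inhibitory receptors of the macrophage itself. The 10 genes were Cd80, Cd86, Cd274, Pdcd1lg2, Icosl, Icam1, Cd83, Cd200r1, Cd47 and Sirpa. They were matched by gene symbol, and all 10 had rows among the 56092 symbols of the count table. RNA-seq was performed on the mouse macrophage line RAW264.7, transduced with a lentiviral control (shNC, described in the labels as an empty vector and in the methods as a non-targeting shRNA) or with an shRNA against Trem2 (shTrem2), each with GFP, and kept as stable lines. Controls included, every culture was given 20 ng/mL IL-4 over 24 hours and afterwards freeze-thaw debris of the mouse kidney tubular line TCMK-1 for a further 24 hours. There were 3 libraries per group, and the comparison addresses what changes in debris-exposed macrophages when Trem2, a lipid-sensing myeloid receptor, is reduced. The paper describes knockdown cells made with more than 1 Trem2 shRNA, whereas the labels name no more than 1 transduced population per group. The sources used here do not say which Trem2 shRNA or shRNAs the shTrem2 libraries carried. An effect of the line cannot be told apart from an effect of the knockdown. The labels do not say whether libraries of a group came from separate cultures, so p-values measure the spread between these libraries, which may be technical.

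T cells read antigen together with a second, costimulatory signal. CD80 and CD86 deliver it through CD28 and are also bound by the inhibitory receptor CTLA-4, while ICOS ligand acts through ICOS. PD-L1 (Cd274) and PD-L2 (Pdcd1lg2) engage PD-1 and restrain the T cell, and ICAM-1 holds the cells together by binding the integrin LFA-1, a dimer of Itgal and Itgb2. CD47 is displayed on most cells and binds SIRPα on macrophages, which dampens phagocytosis, and the CD200 receptor is another inhibitory receptor of myeloid cells.

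The promoters of these genes differ in the short motifs they hold, and those of Cd80 and Pdcd1lg2 are shown because they contain a match to a motif of a factor linked to IL-4, AP-1 or NF-kB signalling. Each line gives the 250 bases before the start site on the plus strand of GRCm38.p6 (RefSeq), with the matched motif in capitals. Cd80 lies on chromosome 16 (chr16:38458683-38458932) and Pdcd1lg2 on chromosome 19 (chr19:29410669-29410918).
Cd80: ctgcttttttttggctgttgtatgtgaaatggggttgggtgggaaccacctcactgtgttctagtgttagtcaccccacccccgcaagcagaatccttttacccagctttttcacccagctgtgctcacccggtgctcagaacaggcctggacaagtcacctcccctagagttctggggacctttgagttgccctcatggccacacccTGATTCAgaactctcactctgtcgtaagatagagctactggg
Pdcd1lg2: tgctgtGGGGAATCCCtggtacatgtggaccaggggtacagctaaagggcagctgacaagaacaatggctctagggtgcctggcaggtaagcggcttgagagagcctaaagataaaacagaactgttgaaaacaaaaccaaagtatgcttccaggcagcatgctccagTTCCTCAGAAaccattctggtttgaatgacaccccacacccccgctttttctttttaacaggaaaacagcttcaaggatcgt
The Cd80 window held TGATTCA from base -42 to -36 relative to the start site, a match to TGANTCA, in which N is any base. That is the form of the AP-1 motif that was searched. The Pdcd1lg2 window held the STAT6-type motif (TTC and GAA with 4 bases of any kind between them) from base -82 to -73, and the NF-kB motif from base -244 to -235. Both strands were searched in windows of the same length, and the shares of the 32851 promoters in the table with a match were 6.75% for AP-1, 5.85% for the STAT6-type motif and 3.9% for NF-kB. None of the 7 windows found for 6 of the 10 genes held the interferon-response motif (GAAA, 2 bases of any kind, GAAA), which 2.98% of all promoters held. The windows of Icosl, Icam1, Cd47 and Cd274 had no match to any of these 4 motifs, and Cd86, Cd83, Cd200r1 and Sirpa had no entry. A match describes letters only and is not evidence of binding.

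Libraries held between 15876119 and 19655165 counts assigned to named genes. Levels are given as CPM (counts scaled to a common library total) with edgeR's TMM factors, and the detection floor was set at 3 counts, the upper limit for a gene with none, which is 0.155 to 0.186 CPM and covers counting error only. Trem2, the targeted gene, fell from 127 ± 15.4 CPM in shNC to 69.4 ± 9.42 in shTrem2 (SD, n = 3; log2 fold change -0.87, adjusted p = 3.39e-06, edgeR). In FPKM, which corrects for transcript length, Trem2 fell from 178 ± 28.5 to 41.7 ± 4.14, and the edgeR log2 fold change with an offset for effective length was -2.06 (adjusted p = 1.77e-06), so the decrease was larger in length-corrected level than in counts and Trem2 was still detected in every shTrem2 library. Changes were called at an edgeR adjusted p under 0.05 together with a fold change over 1.5, over the 13528 genes that passed the filter on low counts. Of these, 21.8% were called in either direction, 9.46% as higher and 12.4% as lower in shTrem2, so that a call by itself was common. In bulk RNA, fewer cells with a transcript and less of it per cell cannot be told apart.

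In all, 3 T-cell-facing ligands fell and 1 inhibitory receptor rose in the shTrem2 libraries. Cd80, Icosl and Icam1 were lower in every shTrem2 library than in any shNC library, by 1.89-, 1.93- and 1.63-fold, and Sirpa was higher by 2.26-fold. Of the 10 genes, 8 passed the filter, and 4 of those 8 were called, 1 higher and 3 lower. Among all genes tested 21.8% were called, 9.46% higher and 12.4% lower. Cd47 passed the adjusted p, as 57.4% of all genes tested did, but changed by less than 1.5-fold, Cd274, Cd83 and Cd200r1 did not pass, and Cd86 and Pdcd1lg2 were at or near the floor of 3 counts and were not tested. The groups did not overlap for 5 of the 8 (Cd80, Icosl, Icam1, Cd47 and Sirpa), against 63.8% of all genes tested. The median log2 fold change of the 8 was -0.22, and that of all genes tested was 0.

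**Figure D1:**
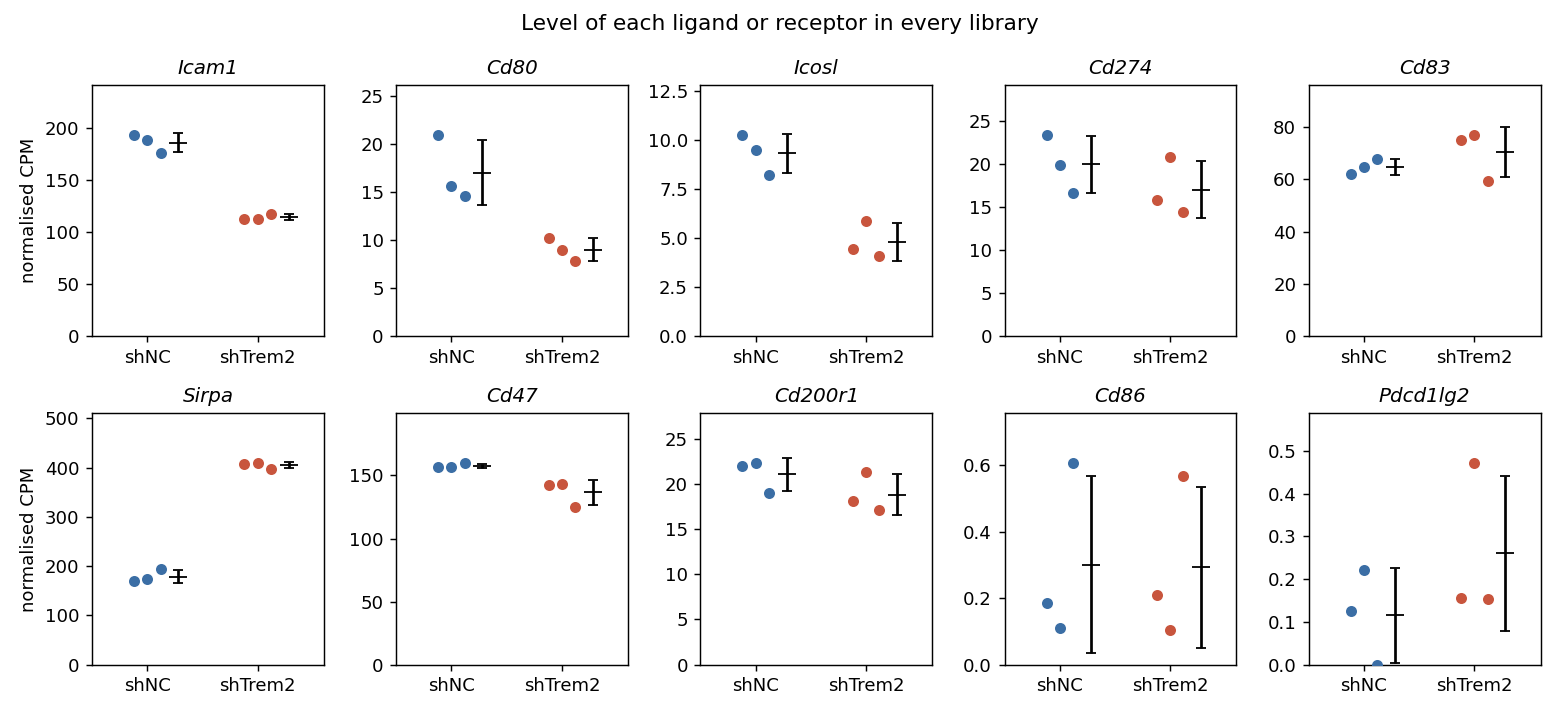
Normalised CPM (vertical axes, linear from 0) of the 10 genes in each library of shNC (blue) and shTrem2 (red), with black bars for the mean and SD of 3 libraries. Icam1, Cd80 and Icosl sit lower in all 3 shTrem2 libraries and Sirpa higher, whereas the points for Cd274, Cd83, Cd200r1, Cd86 and Pdcd1lg2 overlap between groups.

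Cd80, the ligand of CD28 and CTLA-4, was at 20.9, 15.6 and 14.6 CPM in the 3 shNC libraries and at 10.2, 8.99 and 7.83 CPM in the 3 shTrem2 libraries. The groups did not overlap, and shNC replicate 1 stood highest. Mean levels were 17.1 ± 3.41 and 9.01 ± 1.20 CPM, a log2 fold change of -0.92 (SE 0.147, 95% interval -1.23 to -0.60, edgeR adjusted p = 1.21e-04). Without that highest shNC library the log2 fold change was -0.75 (edgeR adjusted p = 5.22e-04). With all libraries and an offset for effective length it was -0.70 (edgeR adjusted p = 0.0182), a smaller decrease than in counts.

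Icosl, the ligand of ICOS, was found at 10.3, 9.49 and 8.25 CPM in shNC and at 4.43, 5.90 and 4.12 CPM in shTrem2. All 3 shTrem2 libraries lay below the lowest shNC library. The means of 9.33 ± 1.01 and 4.82 ± 0.952 CPM gave a log2 fold change of -0.95 (SE 0.163, 95% interval -1.30 to -0.60, edgeR adjusted p = 2.19e-04).

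Icam1, the adhesion ligand of LFA-1, had 193, 189 and 176 CPM in its shNC libraries and 113, 113 and 118 CPM in its shTrem2 libraries. They were tightly grouped within each condition and well apart between them. The log2 fold change was -0.70 (SE 0.0492, 95% interval -0.81 to -0.60, edgeR adjusted p = 5.90e-08), from 186 ± 8.82 to 115 ± 2.91 CPM.

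The checkpoint ligand Cd274 (PD-L1) did not separate the groups. It was measured at 23.3, 19.8 and 16.7 CPM in shNC and at 15.8, 20.8 and 14.4 CPM in shTrem2, so that shTrem2 replicate 2 lay above 2 of the 3 shNC libraries. The log2 fold change was -0.23 with a 95% interval of -0.53 to 0.08 (edgeR adjusted p = 0.191), an interval that includes 0 and lies within 1.5-fold on either side. Without shTrem2 replicate 2 it was -0.39 (edgeR adjusted p = 0.0236), still under 1.5-fold.

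The counterparts of these ligands, Cd86 and Pdcd1lg2, were barely detected in either group. Cd86, the second ligand of CD28, had 3, 2 and 11 counts in shNC and 4, 2 and 11 counts in shTrem2, so replicate 3 of each group held most of its reads. Summed over each group these were 16 and 17 counts, or 0.306 CPM (95% Poisson interval 0.175 to 0.497) and 0.295 CPM (0.172 to 0.472). Pdcd1lg2 (PD-L2) had 2, 4 and 0 counts in shNC and 3, 9 and 3 counts in shTrem2, that is, 0.115 CPM (0.0421 to 0.250) and 0.260 CPM (0.145 to 0.429). A difference between groups was not detectable for either gene at this depth. With no filter on low counts, the edgeR adjusted p was 0.971 for Cd86 and 0.420 for Pdcd1lg2.

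Cd83, a glycoprotein of activated antigen-presenting cells, had 61.9, 64.6 and 67.9 CPM in the control libraries against 74.9, 76.8 and 59.5 CPM after knockdown. Replicates 1 and 2 of shTrem2 lay above all shNC libraries and replicate 3 lay below them. The log2 fold change was 0.12 (95% interval -0.06 to 0.30, edgeR adjusted p = 0.243), whereas leaving out shTrem2 replicate 3 gave 0.22 (adjusted p = 0.00681), still under 1.5-fold.

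Among the receptors and ligands that restrain phagocytes, Sirpa rose and neither Cd47 nor Cd200r1 was called. Sirpa, the macrophage receptor for CD47, was at 170, 173 and 194 CPM in shNC and at 408, 408 and 398 CPM in shTrem2. The lowest shTrem2 library had more than the highest shNC library by a wide margin, and both groups were tight. Means of 179 ± 13.3 and 405 ± 5.85 CPM gave a log2 fold change of 1.18 (SE 0.0533, 95% interval 1.06 to 1.29, edgeR adjusted p = 1.12e-09). The count table holds 14 Sirpa rows without transcript names, of which 8 reached a mean of 1 CPM in a group. All 8 had higher means in shTrem2, by 1.28- to 6.83-fold, and 6 of them were higher in every shTrem2 library. The close paralogs Sirpb1a, Sirpb1b and Sirpb1c, which could share reads with Sirpa, had at most 6 counts in any library. How shared reads were assigned is not given, and such sharing was not tested.

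Cd47 depended on how transcript length was treated. Its counts gave 157, 157 and 159 CPM in shNC and 142, 143 and 125 CPM in shTrem2, which did not overlap. The log2 fold change was -0.21 (SE 0.0544, edgeR adjusted p = 0.00516), a 1.15-fold decrease. In FPKM, which divides each transcript's count by its effective length, Cd47 was at 68.3, 65.3 and 64.7 in shNC and 67.8, 66.5 and 63.9 in shTrem2, and the groups overlapped. With an offset for the effective length in edgeR the log2 fold change was 0.03 (adjusted p = 0.606), so the decrease was present in reads and not in length-corrected level.

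Cd200r1, the inhibitory receptor for CD200, was at 21.9, 22.2 and 19.0 CPM in shNC and at 18.1, 21.3 and 17.0 CPM in shTrem2. The groups overlapped through shTrem2 replicate 2. Its log2 fold change was -0.16 (95% interval -0.38 to 0.06, edgeR adjusted p = 0.192), and without that library it was -0.26 (adjusted p = 0.0438), still under 1.5-fold. Its own ligand Cd200 had no count in any library. Of its paralogs, Cd200r2 was at 1.29 ± 0.399 and 2.04 ± 0.730 CPM and Cd200r4 at 1.65 ± 0.133 and 2.41 ± 0.529 CPM, with edgeR adjusted p of 0.115 and 0.0893, and Cd200r3 had at most 7 counts.

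**Figure D2:**
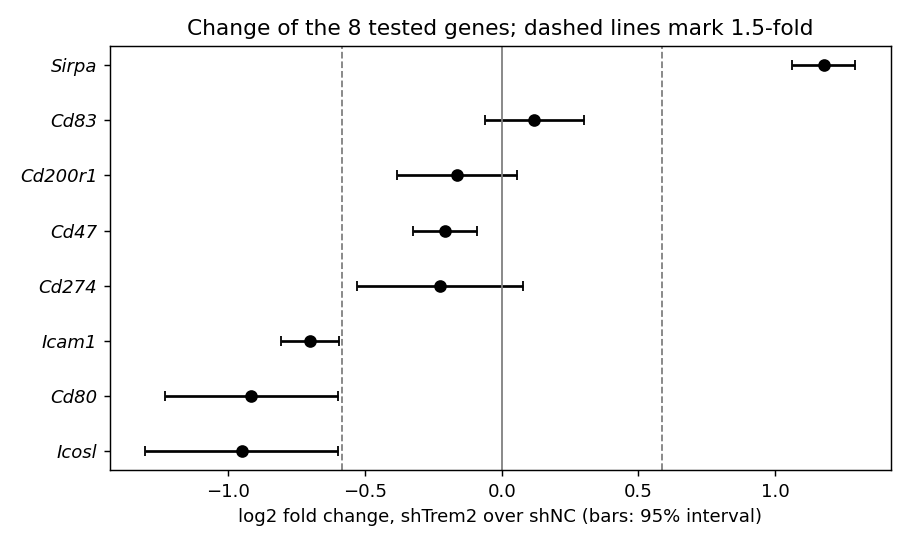
Log2 fold change of shTrem2 over shNC (horizontal axis) for the 8 tested genes, with 95% intervals from edgeR and dashed lines at 1.5-fold. Sirpa lies at 1.18 and Icam1, Cd80 and Icosl lie between -0.95 and -0.70 with intervals beyond the dashed lines, whereas the intervals of Cd83, Cd200r1 and Cd274 cross 0.

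Levels of different genes were compared in FPKM. In shNC the order was Icam1 (84.7), Sirpa (73.8), Cd47 (66.1), Cd83 (32.8), Cd200r1 (12.9), Cd80 (8.53), Cd274 (6.04), Icosl (3.92), Cd86 (0.397) and Pdcd1lg2 (0.0867). Each neighbour in this order was separated by the range of its 3 libraries, except Cd86 and Pdcd1lg2, whose ranges overlapped. In shTrem2 Sirpa stood first at 178 FPKM, Cd47 second at 66.1 and then Icam1 at 51.2, again with no overlap between neighbours. Below them came Cd83 (34.9), Cd200r1 (11.4), Cd80 (5.15), Cd274 (5.04), Icosl (2.08), Pdcd1lg2 (0.190) and Cd86 (0.177). There the ranges of Cd80 and Cd274 overlapped, as did those of Pdcd1lg2 and Cd86.

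The ligand CD47 and its receptor SIRPα were thus close in RNA level in control cells and apart after knockdown. The ratio of Cd47 to Sirpa FPKM was 0.968, 0.906 and 0.820 in shNC and 0.375, 0.368 and 0.372 in shTrem2. The log2 ratio differed by -1.27 between groups, with no overlap. The exact two-sided permutation test gave p = 0.1, the smallest that 3 against 3 libraries allow, and 0.4 after Benjamini-Hochberg adjustment over 4 ratios. The 3 other ratios were set against Cd86 or Pdcd1lg2 and are not given because these denominators were near the floor.

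The fall of Icosl and Icam1 lay in their coding transcripts. Rows of the count table could be given GENCODE M21 transcript names by rebuilding each gene's FPKM from annotated lengths. The coding transcript Icosl-201 had 8.21, 8.60 and 7.59 CPM in shNC and 2.59, 4.02 and 3.01 CPM in shTrem2, a log2 ratio of -1.34 with no overlap. The retained-intron transcript Icosl-204 had 1.24, 0.505 and 0.581 CPM in control libraries against 1.64, 1.14 and 0.835 CPM after knockdown, which overlapped. As a mean share of the gene's counts, Icosl-201 went from 87.6% to 66.6% and Icosl-204 from 8.16% to 25.5%. These shares rest on 80 to 171 counts per library for the whole gene, and exchanging the low rows of Icosl rebuilt its FPKM within 0.951%, against 0.149% for the order used.

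For Icam1, the coding transcript Icam1-201 had a log2 ratio of -0.75. The retained-intron transcript Icam1-202 was at 5.49, 3.82 and 4.46 CPM in shNC and at 5.43, 6.49 and 7.97 CPM in shTrem2, overlapping by 1 library. Its mean share of Icam1 counts was 2.46% in shNC and 5.77% in shTrem2. Both of the main Cd80 transcripts were lower without overlap, Cd80-201 with a log2 ratio of -0.95 and Cd80-202 with -1.001. The short coding transcript Cd80-203, of 748 nt, had a mean share of 1.22% in shNC and 5.36% in shTrem2, and its levels overlapped. These transcript values were not tested.

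Cd47 counts shifted between transcripts of different length. Cd47-201, of 5250 nt, was at 115, 117 and 121 CPM in shNC and at 94.2, 96.8 and 78.6 CPM in shTrem2, and its mean share of the gene's counts was 74.6% and 65.6%. Cd47-207, of 1271 nt, took 19.8% and 20.1%. Cd47-203 had 0.351, 0.269 and 1.12 CPM in shNC and 3.70, 2.94 and 3.21 CPM in shTrem2. Exchanging 2 of the 10 Cd47 rows rebuilt its FPKM within 0.0289%, against 0.00853% for the order used. Other orders were not compared, so the names of the low Cd47 rows are less certain. The mean effective length of the gene was 2387 nt in shNC and 2022 nt in shTrem2. Cd83 counts were divided almost evenly between coding Cd83-201 and retained-intron Cd83-202 in both groups, and Cd274 had a single transcript.

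**Figure D3:**
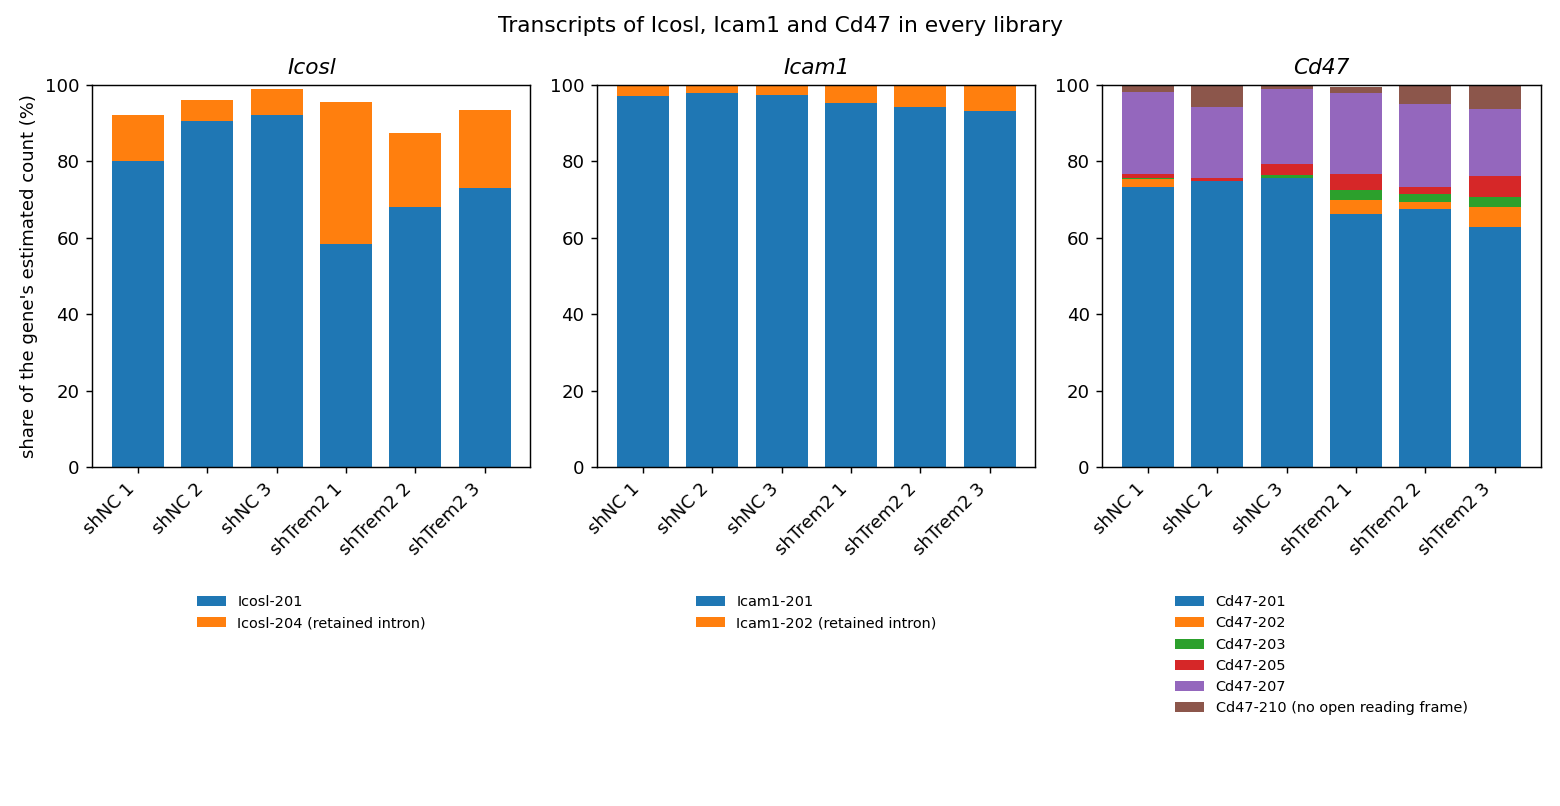
Share of each gene's estimated count (vertical axis, percent) by transcript in the 6 libraries (horizontal axis) for Icosl, Icam1 and Cd47, for transcripts with at least 20 counts in a library; any space above a bar is transcripts below that. The Icosl-204 band is wider in all 3 shTrem2 libraries, and the Cd47-201 band is narrower.

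The receptors for these ligands, known mainly from lymphocytes, were also counted in the same macrophage libraries, and they moved in both directions. Pdcd1, which encodes PD-1, the receptor for PD-L1, was at 11.6, 12.1 and 15.1 CPM in shNC and at 3.55, 3.29 and 2.63 CPM in shTrem2. It fell by 2.04 on the log2 scale (edgeR adjusted p = 1.91e-07), while Cd274 did not pass the test. Cd28, the receptor for CD80, had 1.93, 2.55 and 2.36 CPM in shNC libraries against 7.04, 10.2 and 7.47 CPM in shTrem2, a log2 fold change of 1.84 (edgeR adjusted p = 3.15e-06). Cd28 was thus higher in the libraries in which Cd80 was lower.

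Icos, the receptor for ICOS ligand, went from 2.57 ± 0.874 to 4.26 ± 0.350 CPM, with a log2 fold change of 0.72 (edgeR adjusted p = 0.0186). That call was lost without shNC replicate 1 (adjusted p = 0.08), without shNC replicate 2 (0.0639), without shTrem2 replicate 2 (0.0586) and in every length-corrected fit (0.108 to 0.122). The T-cell kinase Lck was at 3.34 ± 0.640 and 5.15 ± 0.351 CPM (log2 fold change 0.62, edgeR adjusted p = 0.0117), and without shNC replicate 1 its adjusted p was 0.0512. Only 1 of Cd28, Icos and Lck was called higher without shNC replicate 1 or 2, so the Lck call was lost in both. Without shTrem2 replicate 1, and with library size as the only normalization, 2 of them were called higher. Ctla4, the inhibitory receptor for CD80 and CD86, had at most 12 counts and was not tested. The other 11 T-lineage genes, among them Cd3d, Cd3e, Cd3g and Cd4, had at most 3 counts in any library, and 5 had none, so the markers that define T cells were at the floor where Pdcd1, Cd28, Icos and Lck were counted.

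**Figure D4:**
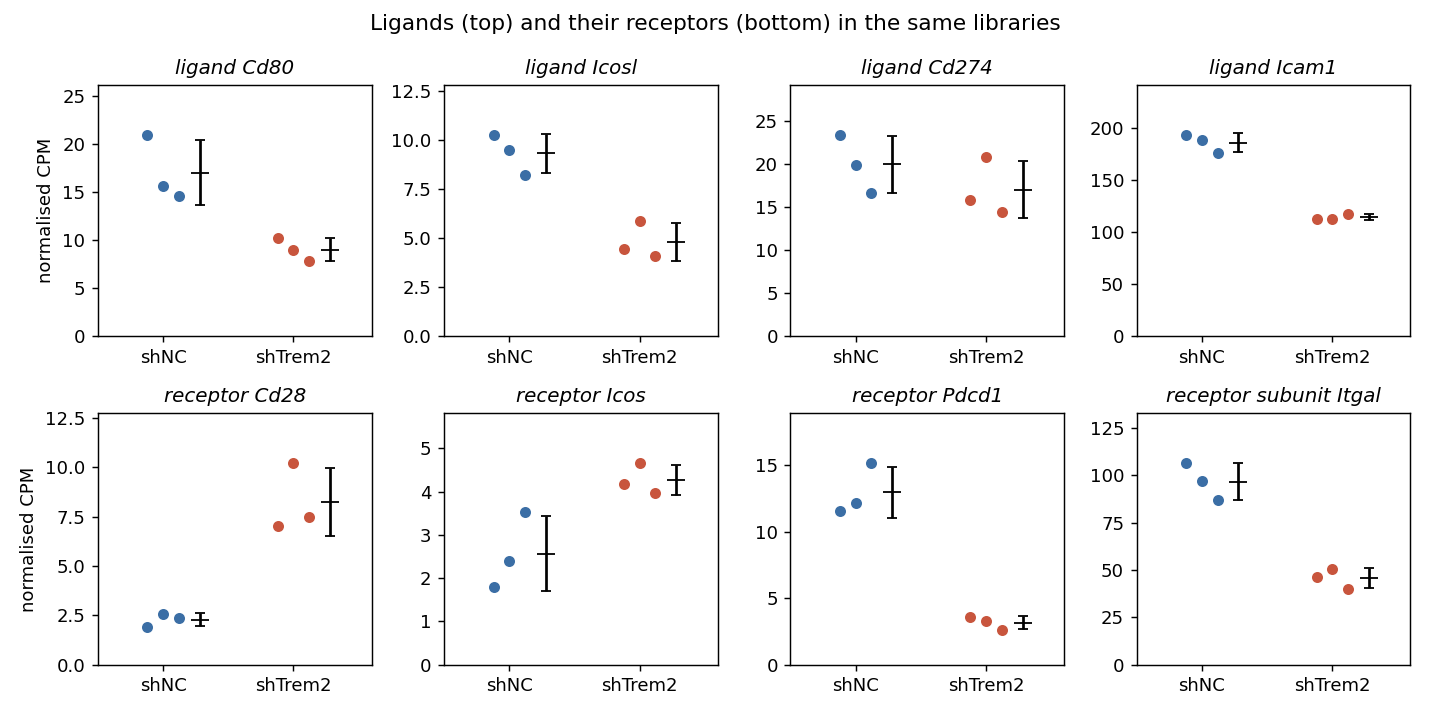
Normalised CPM (vertical axes, linear from 0) of 4 ligands (top) and a receptor or receptor subunit of each (bottom) in shNC (blue) and shTrem2 (red) libraries, with black bars for mean and SD of 3 libraries. Cd80 and Icosl are lower and their receptors Cd28 and Icos higher in shTrem2, while Pdcd1 and Itgal are lower. The Icos call was lost in several other fits.

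The integrin partners of ICAM-1 moved in both directions. Itgal, the α chain of LFA-1, fell from 96.7 ± 9.68 to 45.6 ± 5.37 CPM (log2 fold change -1.08, edgeR adjusted p = 2.13e-07), and Itgam, the α chain of Mac-1, from 466 ± 5.12 to 271 ± 10.4 CPM (-0.78, edgeR adjusted p = 8.43e-09). Their shared β chain Itgb2 fell by 0.32 on the log2 scale, which is under 1.5-fold. The α chain Itgax, which also pairs with Itgb2, rose from 4.90 ± 1.39 to 29.6 ± 3.55 CPM (log2 fold change 2.58, edgeR adjusted p = 1.37e-08), and with the effective-length offset its log2 fold change was 1.79 (adjusted p = 0.00691). Of the 18 myeloid partners of these ligands, 12 were tested, and 2 were called higher (Itgax and Itgb3) and 2 lower (Itgal and Itgam), with a median log2 fold change of 0.39. Over all genes tested, 9.46% were called higher and 12.4% lower. Without shTrem2 replicate 2 the number of partners called higher was 4. Thbs1, which encodes the CD47 ligand thrombospondin-1, had at most 1 count in any library.

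Other ligands of the same families also went both ways. Of 25 listed, 24 had rows, 15 were tested, 3 were called higher and 5 lower, and the median log2 fold change was -0.26. The shares over all genes tested were 9.46% higher and 12.4% lower. Cd40, a TNF receptor family member through which T cells activate macrophages, fell from 24.8 ± 1.87 to 4.23 ± 0.706 CPM (log2 fold change -2.55, edgeR adjusted p = 2.64e-09). The TNF family ligand Tnfsf15 fell from 2.31 ± 0.464 to 0.625 ± 0.242 CPM and Tnfrsf14, the ligand of BTLA, from 3.09 ± 0.678 to 1.59 ± 0.336 CPM. Tnfsf14, itself a ligand of Tnfrsf14, rose from 0.483 ± 0.145 to 1.45 ± 0.354 CPM. There were 8 listed ligands with at most 3 counts in every library, among them Cd70, Tnfsf4 and Vtcn1, so that these costimulatory and inhibitory ligands were not detected in either group.

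Of the genes that carry signals from SIRPα, CD200R and the integrins, all 16 with rows were tested. Of these 16, 2 were called, beside 21.8% of all genes tested, and the shares were not compared by a test. Src was called higher (1.39 ± 0.207 to 3.85 ± 0.289 CPM) and Fyb1 lower (130 ± 15.2 to 85.5 ± 1.95 CPM, 1.52-fold). The Fyb1 call was lost without shNC replicate 1, shNC replicate 2 or shTrem2 replicate 1, each of which left 0 called lower, and with the effective-length offset. Ptpn6 (SHP-1), a phosphatase recruited by SIRPα, fell by 0.44 on the log2 scale, under 1.5-fold, whereas Ptpn11 (SHP-2) was at 144 ± 1.02 and 144 ± 4.44 CPM. Both phosphatases were named after their values were seen.

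Among regulators of these genes, 32 of 34 with rows were tested, 2 were called higher and 10 lower. Their log2 fold changes had a median of -0.10. For comparison, 9.46% of all genes tested were called higher and 12.4% lower, and a difference from these shares was not tested. Rel, an NF-kB subunit, fell from 231 ± 38.5 to 94.3 ± 2.78 CPM (log2 fold change -1.29, edgeR adjusted p = 7.21e-08), and Il4ra, the receptor chain for the IL-4 given to all cells, from 5.60 ± 0.375 to 2.16 ± 0.256 CPM (-1.37, edgeR adjusted p = 3.24e-05). The AP-1 family factor Batf fell from 1.28 ± 0.0461 to 0.328 ± 0.213 CPM (log2 fold change -1.94, and -2.58 without shTrem2 replicate 3), and Marchf1, a ubiquitin ligase that removes CD86 from the surface, rose from 0.363 ± 0.0817 to 1.11 ± 0.0557 CPM. Outside the naming rule, and chosen after their values were seen, Jak2 was lower (148 ± 8.98 to 62.8 ± 2.67 CPM), while Cmtm6, a protein that stabilises PD-L1, differed by less than 1.5-fold (63.5 ± 2.65 and 54.9 ± 1.55 CPM). No relation between a regulator and a ligand was tested.

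Macrophage identity and other cell types were checked beside these results. Of 14 macrophage markers, 12 were tested, 4 were called higher and 1 lower, including Mrc1 (0.472 ± 0.264 to 3.28 ± 0.414 CPM), Lyz2 (log2 fold change 1.39), Fcgr1 (0.85) and Itgam (-0.78). Among all genes tested, 9.46% were called higher and 12.4% lower. Arg1, by which the labels describe these macrophages, had between 1 and 3 counts in every library, and Mertk at most 3. Tubule markers other than Aqp1 had at most 15 counts in any library, and B-cell and dendritic markers other than Zbtb46 at most 13. Aqp1 rose from 0.451 to 2.20 CPM and Zbtb46 fell from 8.06 to 4.48 CPM. The part of these shifts in the ligand results was not tested.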

How the data were processed

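Per the processing notes, the authors used fastp for trimming, HISAT2 for alignment to GRCm39 and StringTie for assembly. The counting tool and annotation release are not given in the sources used here. Libraries came from a stranded poly(A) kit. The authors deposited estimated counts per transcript, neither depth- nor length-scaled, and FPKM per gene. Effective length, worked back from counts and FPKM, followed annotated length with a slope between 0.9986 and 0.9991. Only genes whose effective and annotated lengths were close entered that fit, so the slope is not an independent check of FPKM. Their group means were not used.

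Counts were summed per symbol and rounded. Rows without a symbol held 0.908% to 1.12% of counts and were left out. Samples were grouped by their labels. edgeR 4.0.16 was run in R 4.3.3 (TMM, filterByExpr, glmQLFit, glmQLFTest, no covariates) with Benjamini-Hochberg adjustment over all genes tested, and was tested on simulated data. Rows were named by transcript through GENCODE M21 (GRCm38), whose build differs from that of the files, with a model of effective length chosen after seeing the data and an FPKM error under 1% in all 6 libraries. The Sirpa rows were not named because another order of rows gave a smaller error. Motifs were searched in the 250 bases before each start site, and bases after it, although planned, were left out. Results for 1 further motif and 1 regulator are not reported here.

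Members and gene lists were chosen with earlier results of these data known. Named were the 10 genes examined, Trem2, Arg1, the paralogs of Sirpa and Cd200r1, and up to 4 called genes per list with the largest change and at least 1 CPM in a group. Genes outside that rule were chosen after their values were seen. Alternatives included DESeq2 1.42.0, limma 3.58.1 (voom, and log2(FPKM + 1) or log2(FPKM + 0.1)), other normalizations, filters and thresholds, an effective-length offset, a replicate block and each library left out.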

Additional observations from a re-analysis of the deposited data

How the results depend on the processing

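The calls of Cd80, Icosl, Icam1 and Sirpa kept their direction and an adjusted p under 0.05 in all 17 other fits, with log2 fold changes of -1.02 to -0.65, -1.12 to -0.68, -0.74 to -0.68 and 1.13 to 1.30. At a fold change over 2, 0 of these genes was called lower. Cd47 was reversed to 0.034 with the effective-length offset and was near 0 in limma on log2(FPKM + 1) (-2.37e-04) and log2(FPKM + 0.1) (-2.41e-04), where the correction for transcript length made the difference. With single libraries left out, the log2 fold change ranged from -0.39 to -0.11 for Cd274, 0.054 to 0.22 for Cd83 and -0.26 to -0.10 for Cd200r1. In the same fits 2 to 4 myeloid partners and 1 to 3 lymphocyte receptors were called higher, and 0 to 1 signalling genes lower.

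Ligands outside the 10 called higher numbered 1 with limma on log2(FPKM + 1), with glmTreat and at a fold over 2, and those called lower 2 with glmTreat and at a fold over 2. In limma on log2(FPKM + 1), 1 myeloid partner, 0 signalling genes and 1 regulator were called higher, and a minimum of 10 counts in every library also left 1 regulator. Signalling genes called lower numbered 0 with the effective-length offset, limma on FPKM with either pseudocount, glmTreat and a fold over 2. At a fold over 2, 1 myeloid partner and 5 regulators were called lower. Lymphocyte receptors called higher numbered 1 with glmTreat, at an FDR under 0.01 and at a fold over 2. With no fold threshold, 6 myeloid partners, 4 signalling genes and 9 regulators were higher, and 8 other ligands, 4 myeloid partners and 5 signalling genes lower. Except where length is named, the cause was not tested.

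Same-numbered replicates did not deviate together (correlations 0.006, -0.004 and 0.007). With the replicate number as a block 2911 genes were called against 2951 without, again 1 of the 10 examined genes higher and 3 lower, and no call among these 10 changed. Over all genes, glmTreat called 1515. With a pseudocount of 1 on FPKM the log2 fold changes of genes of low level were smaller, for example 0.94 for Cd28 against 1.84. Depth limits Cd86 and Pdcd1lg2, at 17 counts or fewer per group.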
